A study of Mus musculus with 36 samples.

Results

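The genes described here are 28 genes of cholesterol synthesis and its control, found by their symbols in the raw count table and the table of TPM, a transcript abundance scaled for length and depth, among 53421 gene rows. They comprise 18 enzymes that lead from acetyl-CoA to cholesterol, 5 genes of the sterol regulatory element-binding proteins (SREBPs) and their control, and 5 genes of sterol transport and the liver X receptors (LXRs). The genes were selected on measured values: in the non-targeting cells, cholesterol synthesis was the leading gene set of a cluster of genes that was low at 4 h of interleukin-1β (IL-1β), so the non-targeting time course is given below as a description, with no test. The tests use the Ift88-depleted libraries, which that clustering did not use, and the comparison between the siRNAs. The depleted cells are of the same line and had the same treatment. Among the other groups, their libraries were most like the non-targeting libraries of the same time. A fall at 4 h in them is therefore not independent of the selection.

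The RNA came from a fibroblast-like mouse chondrocyte line, a single conditionally immortalised line (labelled WT in the control group). Cells were transfected with 50 nM (as labelled; the methods of the study state a lower dose) of a pool of siRNAs against Ift88 (the IFT88siRNA group), which encodes a protein of intraflagellar transport in primary cilia, or with a non-targeting pool (NT). Each was then lysed before IL-1β (0 h, medium only) or after 1, 2, 4, 8 or 24 h in 10 ng/ml IL-1β, an inflammatory cytokine, which gave 12 conditions with 3 libraries each. There was no untreated library at the later times, so the effects of IL-1β and of time in culture cannot be told apart. The labels do not say that replicates were separate cultures, so p-values measure the spread between these libraries, which may be technical.

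Library totals ran from 19337022 to 38304127 counted read pairs, and the 28 genes took 0.135 to 0.406% of them. Ift88 was at 8.60 to 9.31 CPM (counts scaled to the library total) in NT and 2.57 to 2.88 CPM in IFT88siRNA at 0 h, and it was lower in IFT88siRNA at each of the 6 times, by log2 changes of -1.47 to -2.12. One library stood apart: IFT88siRNA 8 h replicate 3 correlated better with an NT 8 h library (r = 0.9953) than with its own group (r = 0.9925), and its Ift88 level was 2.95 CPM against 1.51 and 1.59 CPM in the other two. Results at 8 h are therefore given with and without it. Of 9 chondrocyte markers, Acan, Matn1, Matn3 and Col9a1 were under 1 TPM in all 36 libraries, and 5, Sox9, Comp and Col2a1 among them, were over 1 TPM throughout. All 8 fibroblast markers were over 1 TPM in all 36 libraries. Of 6 macrophage markers, 5 were under 1 TPM in all 36 libraries and Cd68 alone was above it.

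Cells make cholesterol from acetyl-CoA through mevalonate, farnesyl pyrophosphate, squalene and lanosterol. SREBP-2, encoded by Srebf2, is held in the endoplasmic reticulum by Scap and the Insig proteins while sterols are plentiful, and when sterols run low it is cleaved and turns on the genes of the pathway, Insig1 among them, so that the mRNAs of the pathway usually move together. LXRs sense oxidised sterols and turn on the exporters Abca1 and Abcg1, which act against the accumulation of sterol. In bulk RNA, fewer cells that express a gene and less RNA per cell cannot be told apart.

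The promoter windows of 4 genes are shown, picked by their log2 changes in IFT88siRNA and not by their motifs. Insig1 and Hmgcs1 had the largest increases at 1 h, Mvd had the largest fall at 4 h among enzymes with a window in the reference used, and Abca1 moved the opposite way at 4 h. The sequences are those of RefSeq (GRCm38.p6), read 5′ to 3′ on the gene's strand, from 250 bases before the transcript start, and that of Insig1 ends where the GENCODE annotation begins the gene. Capitals mark the sterol regulatory element (SRE, TCACNCCAC), the CCAAT box (CCAAT, or ATTGG on the other strand) and the E-box (CACGTG). The Insig1 window is chr5:28071162-28071362 (+), that of Hmgcs1 is chr13:119690101-119690350 (+), that of Mvd is chr8:122443423-122443672 (-) and that of Abca1 is chr4:53159896-53160145 (-).
Insig1: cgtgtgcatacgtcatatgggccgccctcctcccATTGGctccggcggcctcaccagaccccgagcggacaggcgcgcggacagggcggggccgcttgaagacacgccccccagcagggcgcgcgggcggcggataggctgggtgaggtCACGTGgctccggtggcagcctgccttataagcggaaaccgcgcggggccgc
Hmgcs1: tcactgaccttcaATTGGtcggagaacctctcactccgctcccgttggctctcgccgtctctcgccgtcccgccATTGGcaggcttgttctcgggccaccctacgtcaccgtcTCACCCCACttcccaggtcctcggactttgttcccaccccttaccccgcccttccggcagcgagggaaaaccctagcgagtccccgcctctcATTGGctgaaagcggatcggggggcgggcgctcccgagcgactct
Mvd: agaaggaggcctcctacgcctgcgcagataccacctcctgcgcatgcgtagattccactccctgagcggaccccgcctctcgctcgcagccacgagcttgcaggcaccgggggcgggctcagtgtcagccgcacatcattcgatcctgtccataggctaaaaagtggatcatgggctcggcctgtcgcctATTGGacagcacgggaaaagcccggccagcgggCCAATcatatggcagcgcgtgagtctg
Abca1: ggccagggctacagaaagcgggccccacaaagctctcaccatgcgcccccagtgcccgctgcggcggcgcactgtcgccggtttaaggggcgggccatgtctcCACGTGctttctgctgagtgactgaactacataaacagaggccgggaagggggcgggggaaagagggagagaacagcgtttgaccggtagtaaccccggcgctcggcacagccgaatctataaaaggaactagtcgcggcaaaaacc

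The Hmgcs1 window held the SRE, 137 bases before the start, and 3 CCAAT boxes. It was the only one of the 23 members with a window (of 28; 15 of the 18 enzymes) that held the SRE letters, against 1.22% of 27025 genes with a window of the same length. A CCAAT box was in the windows of 18 of the 23 members and 14 of the 15 enzymes, against 37.5% of all genes. The E-box was in 6 of 23 members, against 6.86% of all genes, and the GC box GGGCGG in 20 of 23, against 35.4%. These shares are over all genes with a window, expressed in these cells or not, while all members had enough counts to be tested. The shares among expressed genes were not computed, so nothing particular to the pathway is read from them. Matches were counted on both strands, and no matches of different motifs overlap in the printed windows. For the 6 members with 2 or 3 windows, a match in any of them was counted. Fdps, Fdft1, Sqle, Stard4 and Abcg1 had no entry. The Abca1 window held an E-box and no CCAAT box, while Insig1 held an E-box 101 bases and a CCAAT box 216 bases before the start. These are matches of letters and not measured binding sites, and any link between them and the changes in RNA was not tested.

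**Figure D1:**
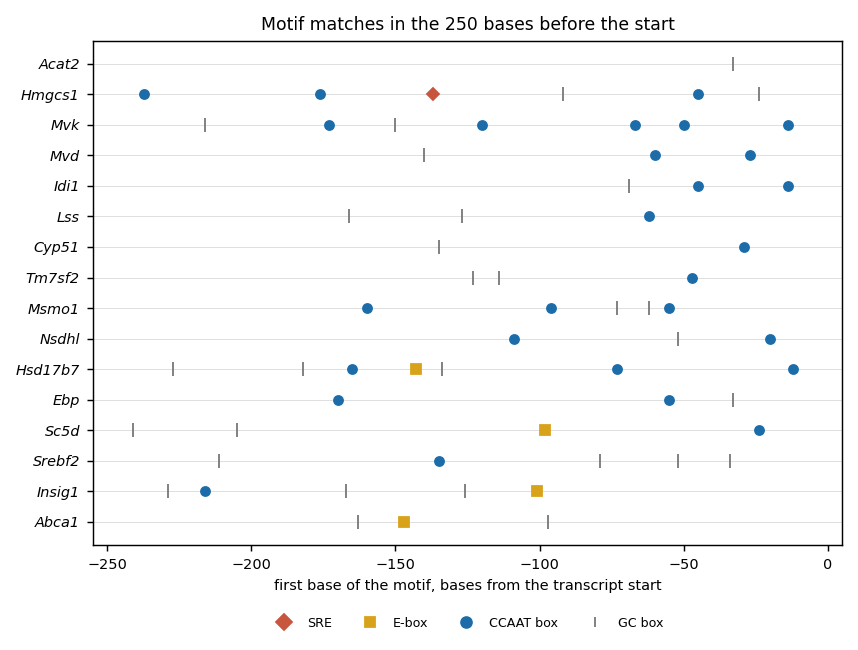
Positions of 4 motifs in the promoter windows of the 16 members that have a single window and at least 1 match; the horizontal axis gives bases from the transcript start and each symbol is the first base of a match on either strand. The CCAAT boxes of the enzymes lie at several distances from the start, Mvk holds 5 of them, and Hmgcs1 alone holds the exact SRE letters searched.

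The comparison of the IFT88siRNA libraries at each later time with those at 0 h asks how the pathway moved after IL-1β. A gene was called where edgeR's quasi-likelihood test gave a Benjamini-Hochberg adjusted p under 0.05 over all genes and the fold change was over 1.5. The pathway rose and then fell. At 1 h, 20 of the 28 genes were higher and 1 was lower, where 6.82% of all 16129 genes tested were higher and 8.25% lower. At 4 h, 1 was higher and 12 were lower, where 16.0% of all genes were higher and 13.3% lower. All 12 genes that were lower at 4 h had been higher at 1 h, a sequence that 0.614% of all genes showed, although both comparisons share the 0 h libraries. The other 8 genes that were higher at 1 h were not past the thresholds at 4 h.

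Among the 18 enzymes, 17 were higher at 1 h, with a median log2 change of 1.05 against -0.01 for all genes. At 4 h, 11 of 18 were lower and none was higher, with a median of -0.75 against -0.01. The remaining times lay between these. At 2 h, 12 of the 28 genes were higher and 1 lower, where 12.4% of all genes were higher and 13.2% lower. At 8 h, 2 were higher and 1 lower, where 10.5% of all genes were higher and 7.11% lower. At 24 h, 2 were higher and none lower, where 6.36% of all genes were higher and 7.87% lower. Between 4 and 24 h, 11 were higher and 1 lower, where 9.60% of all genes were higher and 15.5% lower, and this comparison shares its libraries with the 2 others. Over the 5 times together, 23 of the 28 genes passed both thresholds, where 48.2% of all genes did. Ebp, Insig2, Srebf1, Scap and Nr1h2 did not, with largest log2 changes of 0.18, 0.47, -0.55, 0.10 and 0.42.

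The summed level of the 18 enzymes gives the swing in TPM, per length of transcript. The size depends on this scale. On log2(TPM + 1) the median change of all genes in IFT88siRNA was -0.13 at 1 h and -0.19 at 4 h. The enzyme median at 4 h was -0.93 on that scale and -0.75 on counts. In IFT88siRNA the sum was 1214, 1089 and 1188 TPM at 0 h and 2402, 2295 and 2256 TPM at 1 h. At 4 h it was 625, 624 and 608 TPM. The libraries of these times did not overlap. It was 955, 938 and 929 TPM at 8 h and 1109, 1063 and 1053 TPM at 24 h, which overlapped with 0 h. In NT the means were 1267 ± 17.5 TPM at 0 h, 2214 ± 35.4 TPM at 1 h and 665 ± 28.5 TPM at 4 h (SD, n = 3). At 0 h in NT the highest enzymes by mean TPM were Fdps (191), Msmo1 (164), Idi1 (139) and Hmgcs1 (108), and the lowest were Nsdhl (20.6) and Hsd17b7 (19.2).

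**Figure D2:**
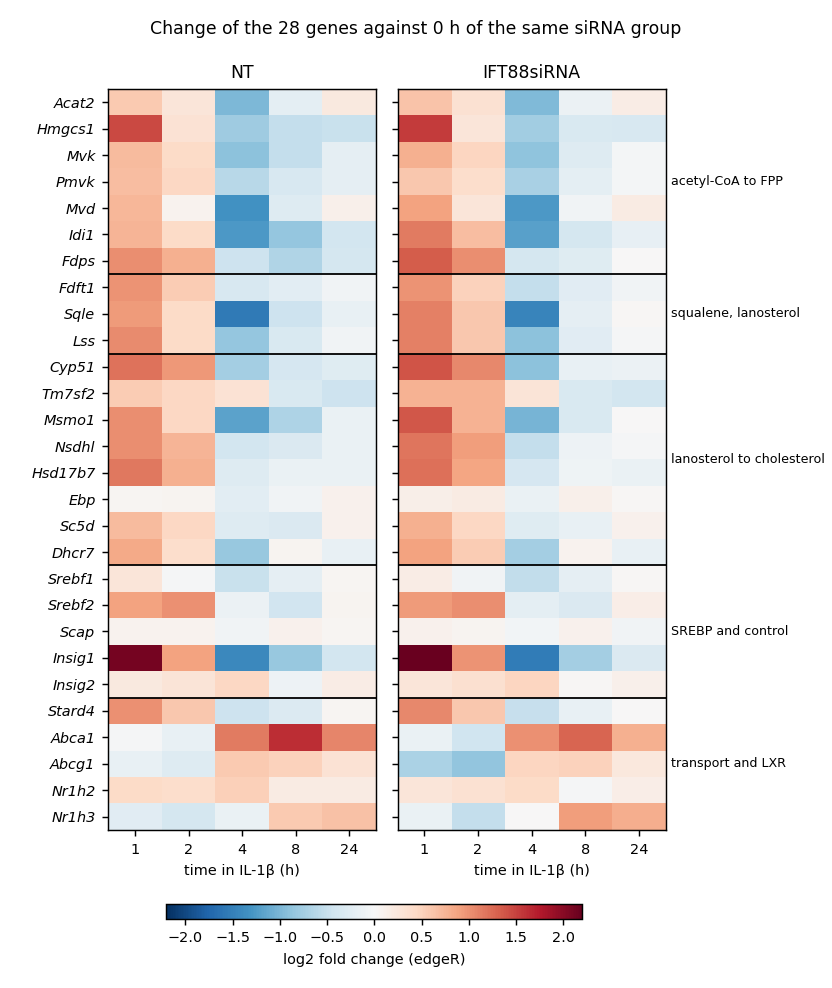
Log2 fold change of the 28 genes against 0 h of the same siRNA group, by time in IL-1β (h), for NT at left and IFT88siRNA at right, with the genes in pathway order and lines between the groups named at the right. Most enzyme rows are red at 1 h and blue at 4 h in both groups, while Abca1 is red from 4 h on; the 1 h change of Insig1 is 2.10 in NT and 2.18 in IFT88siRNA.

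The 7 enzymes from acetyl-CoA to farnesyl pyrophosphate were all higher at 1 h, and 6 of 7 were lower at 4 h. Hmgcs1 (chr13:119690379-119708260, +, GRCm38), which encodes the cytosolic HMG-CoA synthase at the entry to the pathway, was at 142, 121 and 136 CPM at 0 h, 418, 382 and 386 CPM at 1 h and 75.4, 80.2 and 77.3 CPM at 4 h in IFT88siRNA. The 3 times did not overlap. Its log2 change was 1.53 ± 0.0648 (SE) at 1 h (edgeR adjusted p = 1.25e-15) and -0.77 ± 0.0666 at 4 h (edgeR adjusted p = 3.82e-10). By 2 h most of the increase was gone: 172, 170 and 142 CPM overlapped with 0 h, and the log2 change was 0.26. Hmgcs1 shares 12.1% of its exonic bases with Gm48342 on the other strand, and the counting did not use strand.

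Idi1, which encodes the isomerase that makes the second 5-carbon unit of isoprenoids, was at 51.2, 37.6 and 47.7 CPM at 0 h, 110, 98.2 and 100 CPM at 1 h and 18.3, 21.6 and 19.3 CPM at 4 h in IFT88siRNA. It was above 0 h in every library at 1 h and below it in every library at 4 h, with log2 changes of 1.14 and -1.20. Idi1 shares 9.22% of its exonic bases with Gm48574 on the other strand. Mvd (chr8:122433601-122443422, -, GRCm38), mevalonate diphosphate decarboxylase, was at 46.0, 47.0 and 43.8 CPM at 0 h, 87.8, 89.2 and 83.6 CPM at 1 h and 19.5, 19.4 and 17.6 CPM at 4 h. Its fall, a log2 change of -1.27 ± 0.0690 (edgeR adjusted p = 5.15e-14), was larger than its rise of 0.89 ± 0.0608. By 24 h Mvd was at 52.4, 51.0 and 55.8 CPM, just above every 0 h library, with a log2 change of 0.18.

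Acat2, the cytosolic acetyl-CoA acetyltransferase, and the kinases Mvk and Pmvk had log2 changes of 0.63, 0.78 and 0.60 at 1 h and -0.97, -0.88 and -0.72 at 4 h. The 1 h increases of Acat2 and Pmvk lay just above the threshold and were under it with upper-quartile scaling, at 0.55 and 0.52. Fdps, farnesyl pyrophosphate synthase, differed from the others of this stretch: it stayed high at 2 h, with log2 changes of 1.34 at 1 h and 1.02 at 2 h, and its change of -0.39 at 4 h did not pass the fold threshold. Of its exonic bases, 26.7% are shared with the annotated gene Gm43738, so its counts are uncertain.

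The enzymes of squalene and lanosterol followed. Sqle, squalene epoxidase, a controlled step of the pathway, was at 102, 94.9 and 101 CPM at 0 h, 234, 218 and 209 CPM at 1 h and 36, 38.4 and 34.3 CPM at 4 h in IFT88siRNA. No library of one time reached those of another. The log2 change was 1.11 ± 0.0555 at 1 h (edgeR adjusted p = 4.43e-14) and -1.45 ± 0.0605 at 4 h (edgeR adjusted p = 2.71e-16), the largest fall among the 18 enzymes. At 24 h Sqle was at 104, 102 and 103 CPM, which overlapped with 0 h.

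Lss, lanosterol synthase, was at 50.2, 52.5 and 54.8 CPM at 0 h, 121, 118 and 110 CPM at 1 h and 29.3, 27.0 and 27.5 CPM at 4 h. It rose by 1.11 and then was lower by a log2 change of -0.90, again with no overlap between these times. Fdft1, squalene synthase, rose at 1 h (log2 change 0.98) and had a change of -0.53 at 4 h that did not pass the fold threshold. It shares 18.3% of its exonic bases with Ctsb on the other strand, and the counting did not use strand.

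Of the 8 enzymes from lanosterol to cholesterol, 7 were higher at 1 h and 3 were lower at 4 h. Cyp51, lanosterol 14-demethylase, was at 148, 128 and 144 CPM at 0 h, 399, 368 and 354 CPM at 1 h and 68.7, 78.8 and 74.1 CPM at 4 h in IFT88siRNA. Msmo1, which removes methyl groups from the sterol ring, was at 143, 118 and 136 CPM, then 372, 336 and 340 CPM, then 65.2, 63.4 and 64.5 CPM. For both genes the 3 times were separate. The log2 changes of Cyp51 were 1.38 ± 0.0686 at 1 h (edgeR adjusted p = 3.82e-14), 1.05 at 2 h and -0.91 ± 0.0710 at 4 h. Those of Msmo1 were 1.36 ± 0.0719 at 1 h, 0.76 at 2 h and -1.03 ± 0.0750 at 4 h (edgeR adjusted p = 1.38e-11).

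Dhcr7, which catalyses a last step to cholesterol, had log2 changes of 0.88 at 1 h and -0.74 at 4 h. Nsdhl, Hsd17b7 and Sc5d, which act between lanosterol and the final steps, rose at 1 h with log2 changes of 1.17, 1.21 and 0.78, and their 4 h changes of -0.53, -0.37 and -0.27 did not pass the fold threshold. Nsdhl and Hsd17b7 also stayed high at 2 h, with log2 changes of 0.92 and 0.87. Ebp, the sterol isomerase, was the exception among the enzymes: its means ran from 27.1 to 34.8 CPM over the 6 times in IFT88siRNA and its log2 changes from -0.15 to 0.18. Tm7sf2, a sterol reductase at 5.34 to 5.44 CPM at 0 h, was higher by 0.76 at 1 h and by 0.76 at 2 h, was at 0.29 at 4 h, and was lower at 24 h than at 4 h by a log2 change of -0.69. Its counts are uncertain, since 12.1% of its exonic bases are shared with Vps51, and on TPM all 3 calls were lost, at 0.21 at 1 h, -0.03 at 2 h, the opposite sign, and -0.04 between 4 and 24 h, the comparison in which it was the only member called lower.

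The control genes moved unequally. Insig1 (chr5:28071363-28078662, +, GRCm38), which retains the SREBP-Scap complex and is itself a target of SREBP-2, was at 86.2, 79.5 and 84.6 CPM at 0 h, 405, 391 and 370 CPM at 1 h, 178, 184 and 139 CPM at 2 h and 29.8, 27.3 and 29.1 CPM at 4 h in IFT88siRNA. The 4 times did not overlap. Its 1 h log2 change of 2.18 ± 0.0711 (4.54-fold, edgeR adjusted p = 5.07e-18) was the largest of the 28 genes, and 162 of the 16129 genes tested had a larger increase. Its 4 h change of -1.53 ± 0.0777 (edgeR adjusted p = 1.36e-14) was also the largest fall of the 28 genes. At 8 h it was still low, at 50.6, 49.1 and 48.2 CPM, with a log2 change of -0.75, and -0.74 without the library that stood apart.

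Insig2, the other Insig gene, followed none of this, with means from 36.6 to 50.5 CPM in IFT88siRNA and log2 changes from 0.02 to 0.47, none past the fold threshold. Srebf2 rose at 1 h and stayed up at 2 h. It was at 351, 347 and 347 CPM at 0 h, 687, 701 and 651 CPM at 1 h, 736, 733 and 693 CPM at 2 h and 298, 305 and 290 CPM at 4 h in IFT88siRNA. The 1 h and 2 h libraries overlapped with each other and with no 0 h library, and the log2 changes were 0.93 ± 0.0503 and 1.03 ± 0.0504 (edgeR adjusted p = 2.23e-13 and 1.12e-14). The 4 h libraries lay below those of 0 h, but the change of -0.22 did not pass the fold threshold.

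Srebf1, whose products act mainly on fatty acid genes, had log2 changes of 0.17 at 1 h and -0.55 at 4 h, the latter short of the fold threshold of 0.585 on the log2 scale. Scap, the escort of SREBPs to the Golgi, had log2 changes from -0.08 to 0.10. It shares 13.2% of its exonic bases with 5830462I19Rik on the other strand.

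**Figure D3:**
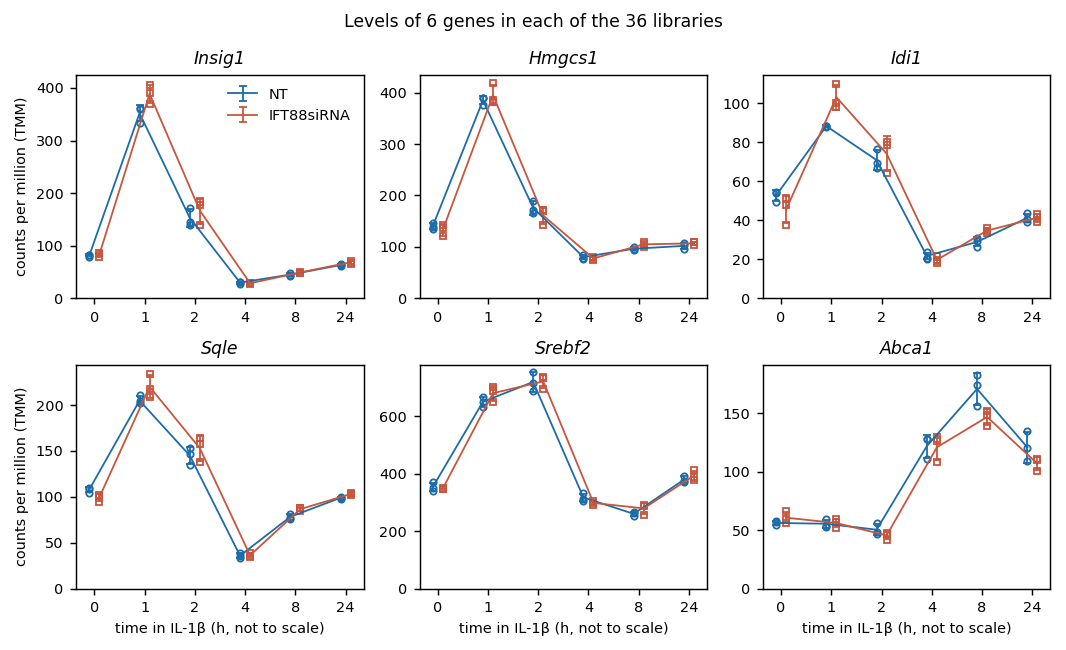
Levels of 6 genes in CPM (scaled by TMM) against time in IL-1β (h, not to scale); open symbols are the 3 libraries of a condition, lines join the means, and bars are SD. Insig1, Hmgcs1, Idi1 and Sqle peak at 1 h and are lowest at 4 h, Srebf2 is high at 1 and 2 h, and Abca1 is highest at 8 h.

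Of the transport and LXR genes, Stard4, a carrier of cholesterol between membranes, was like the enzymes at first. It was at 83.3, 75.6 and 85.8 CPM at 0 h and 189, 164 and 171 CPM at 1 h in IFT88siRNA, a log2 change of 1.06 ± 0.0615, and its change of -0.50 at 4 h did not pass the fold threshold. Abca1 (chr4:53030787-53159895, -, GRCm38), which exports cholesterol to apolipoproteins, moved the other way. It was at 59.7, 66.1 and 56.4 CPM at 0 h, 56.9, 59.4 and 52.0 CPM at 1 h, 128, 108 and 126 CPM at 4 h, 149, 152 and 139 CPM at 8 h and 110, 111 and 101 CPM at 24 h. The 1 h libraries overlapped with those of 0 h, and all 9 libraries from 4 h on lay above both. The log2 changes were 1.0 ± 0.0689 at 4 h (edgeR adjusted p = 4.92e-12), 1.28 ± 0.0684 at 8 h and 0.79 ± 0.0683 at 24 h, and the 8 h value was 1.31 without the library that stood apart.

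Of the other genes of this role, Nr1h3 and Abcg1 were low. Nr1h3, which encodes LXRα, was at 1.35, 1.05 and 1.09 CPM at 0 h and 2.40, 2.14 and 2.10 CPM at 8 h in IFT88siRNA, with 15 to 94 counted read pairs per library over the time course. Its log2 changes were 0.92 ± 0.210 at 8 h (edgeR adjusted p = 0.000755; 0.95 without the library that stood apart) and 0.80 ± 0.207 at 24 h. The 24 h call was lost without replicate 2 of each time (log2 change 0.63, edgeR adjusted p = 0.0539), and on TPM both calls were lost, at 0.38 and 0.47. Abcg1, another sterol exporter, was at 1.49, 1.61 and 1.12 CPM at 0 h, 0.824, 1.10 and 0.753 CPM at 1 h and 0.845, 0.879 and 0.646 CPM at 2 h. It was lower at 1 and 2 h, by log2 changes of -0.69 and -0.86, although the 1 h call was lost without replicate 1 (-0.58) or 2 (-0.77, edgeR adjusted p = 0.0741). At 8 h Abcg1 was not called with all libraries (log2 change 0.50, edgeR adjusted p = 0.0511) and was called without the library that stood apart (0.64, edgeR adjusted p = 0.0175), which took the count at 8 h from 3 to 4. Nr1h2, which encodes LXRβ, had log2 changes from -0.02 to 0.42, none past the fold threshold.

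**Figure D4:**
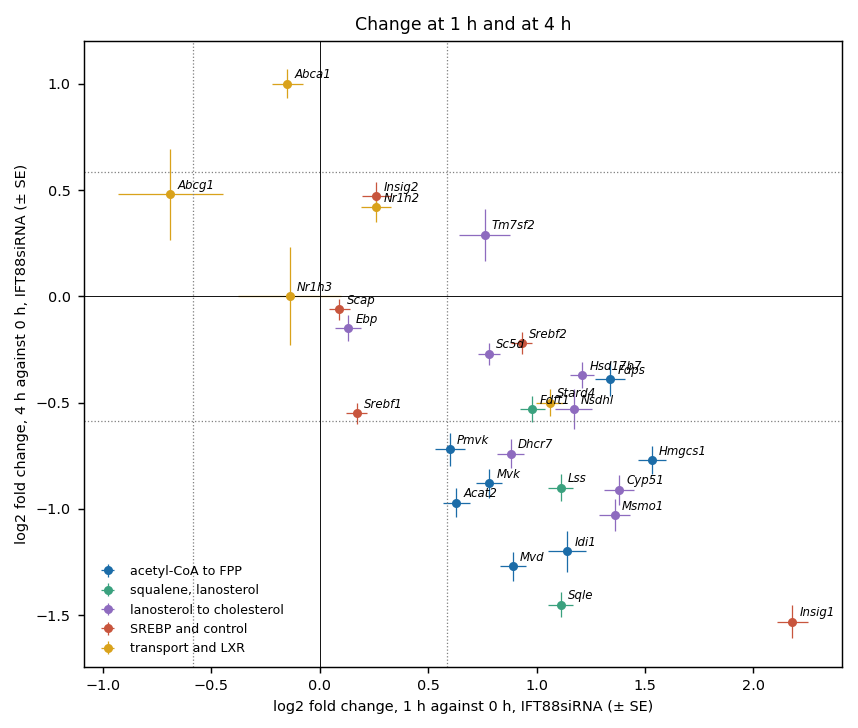
Log2 fold change against 0 h at 1 h (horizontal) and at 4 h (vertical) in IFT88siRNA for the 28 genes, coloured by role, with bars of SE and dotted lines at 1.5-fold. Insig1 lies at the lower right (2.18 and -1.53), 11 enzymes lie past both lines in that corner, and Abca1 (-0.15 and 1.0) lies at the top; both axes share the 0 h libraries.

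The NT libraries are those on which the list was chosen, so their counts past the same thresholds are a description of the selected genes, and nothing is read from them or from the shares beside them. In NT, 18 genes were higher at 1 h and none lower, where 9.22% of all 16048 genes tested were higher and 9.45% lower. At 2 h, 7 were higher and none lower, where 13.0% of all genes were higher and 14.3% lower. At 4 h, 1 was higher and 12 were lower, where 16.3% of all genes were higher and 12.4% lower. At 8 h, 1 was higher and 4 lower, where 11.8% of all genes were higher and 7.87% lower, and at 24 h, 2 were higher and none lower, where 6.61% were higher and 9.71% lower. The median log2 change of the 18 enzymes was 0.89 at 1 h, 0.44 at 2 h, -0.76 at 4 h, -0.34 at 8 h and -0.16 at 24 h. Just outside the fold threshold at 4 h lay Srebf1 (-0.49), and just inside it Pmvk (-0.61).

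Insig1 was at 83.3, 79.4 and 82.2 CPM at 0 h, 360, 361 and 334 CPM at 1 h and 31.6, 28.1 and 30.5 CPM at 4 h in NT. Sqle was at 104, 108 and 110 CPM, then 211, 204 and 202 CPM, then 38.8, 35.0 and 33.6 CPM. Abca1 was at 56.7, 57.8 and 54.1 CPM at 0 h and 183, 174 and 156 CPM at 8 h. For each of these genes the libraries of the times given did not overlap.

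The comparison of IFT88siRNA with NT at each time asks whether depletion of Ift88 altered these genes. None of the 28 genes was called at any of the 6 times. Of all genes tested, 2.23% were called at 0 h, 2.66% at 1 h, 0.496% at 2 h, 0.432% at 4 h, 0.692% at 8 h and 1.15% at 24 h, so a count of 0 among 28 is near what the background gives. The intervals show how precise the estimates for these genes were. The share of all genes with intervals as narrow was not computed, so nothing particular to the pathway is read from them. The 168 log2 differences between IFT88siRNA and NT ran from -0.46 to 0.25, and 163 of the 168 95% confidence intervals lay within 1.5-fold in either direction. The 5 intervals that reached past it belonged to Abcg1 and Nr1h3, the 2 genes with the fewest counts. At an unadjusted p under 0.05 there were 35 of the 168 differences, where 23.9% of the values of all genes over the 6 times met it, and 6 had an edgeR adjusted p under 0.05 without passing the fold threshold, where 9.70% of all values had one. No gene was called with DESeq2 or limma either.

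The 6 log2 differences were at most 0.27 in size and came from 4 of the times. At 0 h, Fdps was lower in IFT88siRNA by a log2 difference of -0.27 (95% interval -0.42 to -0.13) and Msmo1 by -0.20 (-0.32 to -0.09). At 1 h, Idi1 differed by 0.18 (0.09 to 0.27) and Acat2 by 0.13 (0.04 to 0.21), both higher in IFT88siRNA. At 4 h, Cyp51 differed by -0.27 (-0.40 to -0.14), and at 8 h Abca1 by -0.24 (-0.38 to -0.11). In each of the 6 cases the libraries of the 2 siRNAs did not overlap, which adds no support, since the cases were picked by adjusted p. Without the library that stood apart, 5 members in place of 1 had an edgeR adjusted p under 0.05 at 8 h, and none was called: Mvk (0.21), Idi1 (0.26), Nsdhl (0.28) and Ebp (0.26) were higher in IFT88siRNA, and Abca1 (-0.22) was lower.

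Over the 6 times in 1 model, no member passed both thresholds, where 5.19% of all genes did. By adjusted p alone, 10 of 28 passed, where 31.8% of all genes did. For a different response to IL-1β in the siRNA groups, no member passed both thresholds, where 1.20% of all genes did, and 2 of 28 passed by adjusted p alone (Idi1 and Fdps), where 5.53% of all genes did.

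**Figure D5:**
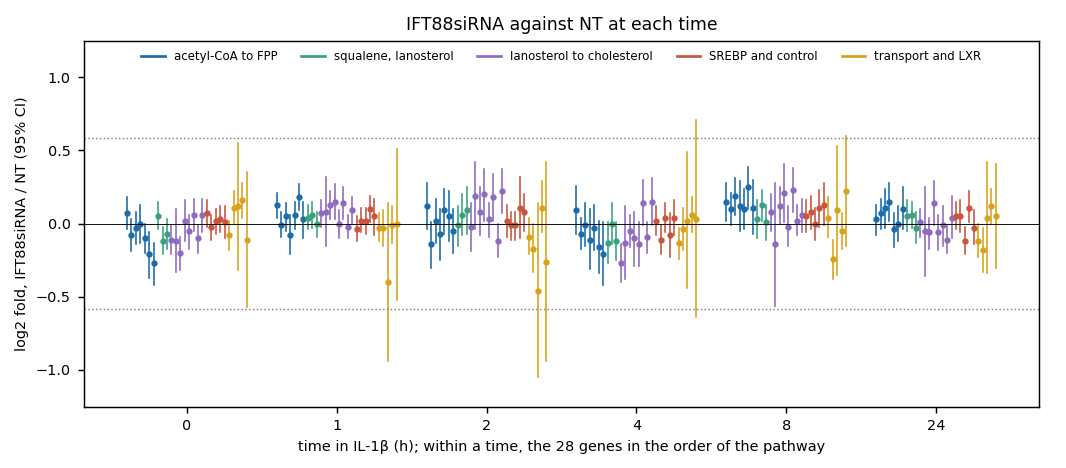
Log2 fold of IFT88siRNA over NT at each time in IL-1β (h) for the 28 genes in pathway order, with 95% confidence intervals, coloured by role, and dotted lines at 1.5-fold. All 168 points lie between the dotted lines, from -0.46 to 0.25, and only intervals of Abcg1 and Nr1h3 cross them.

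Other genes of the same biology, from lists chosen by role, set the pathway beside its neighbours in IFT88siRNA. Of 14 fatty acid genes linked to SREBP-1, 7 were higher at 1 h and none lower, where 6.82% of all genes were higher and 8.25% lower. At 4 h none was higher and 4 were lower, where 16.0% of all genes were higher and 13.3% lower. Scd2, a stearoyl-CoA desaturase, was at 769, 713 and 745 CPM at 0 h, 1552, 1401 and 1350 CPM at 1 h and 196, 191 and 169 CPM at 4 h, with no overlap between them. Its 4 h log2 change of -2.00 ± 0.0844 (edgeR adjusted p = 3.45e-16) exceeded that of every member, and Lpin1, a phosphatidate phosphatase, had -1.78 ± 0.0827. Fasn, the fatty acid synthase, and Acss2, an acetyl-CoA synthetase, were lower at 4 h by log2 changes of -0.89 and -0.73.

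The remaining lists are given by their counts. Beside them, 6.82% of all genes were higher and 8.25% lower at 1 h, and 16.0% were higher and 13.3% lower at 4 h. Of 12 genes of the isoprenoid branch, none was called at 1 h, and 1 was higher and none lower at 4 h (Pdss1, 0.97). Of 10 genes of SREBP processing and sterol sensing, none was called at 1 h and 1 was higher at 4 h (Rnf139, 0.59). Of 14 genes of sterol storage and traffic, none was called at 1 h, while 4 were higher and 3 lower at 4 h. The largest changes there were those of Npc2, a lysosomal cholesterol carrier (1.16), Soat1, which esterifies cholesterol (0.79), Gramd1c (-1.05) and Lrp8 (-1.04). Of 7 other LXR-linked genes tested, 2 were higher and none lower at 4 h: Mylip, a ubiquitin ligase for lipoprotein receptors, at 1.33 and Arl4c at 0.92.

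Of the oxysterol enzymes, 3 of 5 could be tested. Ch25h, which makes 25-hydroxycholesterol, an oxysterol that binds Insig proteins and holds back SREBP-2, was at 0.203, 0.211 and 0.246 CPM at 0 h, 10.9, 10.6 and 11.3 CPM at 1 h, 51.0, 53.1 and 53.5 CPM at 4 h and 27.1, 25.3 and 23.5 CPM at 8 h in IFT88siRNA. In NT it was at 0.209, 0.246 and 0.397 CPM at 0 h, 71.1, 72.2 and 73.5 CPM at 4 h and 47.2, 40.9 and 46.9 CPM at 8 h. Each time was separate from 0 h. The IFT88siRNA libraries lay below those of NT at 4 and 8 h, but the 4 h difference was not called. The share of all genes whose libraries did not overlap between the siRNAs was not computed. The 4 h log2 change in IFT88siRNA was 7.88 ± 0.121 (edgeR adjusted p = 3.85e-24), from a level of a few counts per library at 0 h. At 8 h, Ch25h was lower in IFT88siRNA than in NT by a log2 difference of -0.86 ± 0.0728 (edgeR adjusted p = 0.000136), and by -0.82 without the library that stood apart. Cyp46a1 and Cyp27a1, which hydroxylate the side chain of cholesterol, were lower at 4 h, by log2 changes of -1.02 and -0.71. The part of Ch25h in the fall of the pathway was not tested.

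Levels of cell-type markers beside the swing were as follows. The summed chondrocyte markers ran from 91.4 to 96.3 TPM at 0 h, 115 to 122 TPM at 1 h and 78.7 to 83.2 TPM at 4 h in IFT88siRNA. Of the 7 chondrocyte markers tested, 2 were higher and 2 lower at 1 h (median log2 change 0.41), 4 higher and 2 lower at 2 h (0.82), 1 higher and 3 lower at 4 h (-0.35) and none higher and 6 lower at 24 h (-1.14), when the enzyme median was -0.04. Beside these counts, 6.82% of all genes were higher and 8.25% lower at 1 h, and 12.4% and 13.2% at 2 h. The shares were 16.0% and 13.3% at 4 h, and 6.36% and 7.87% at 24 h. The summed fibroblast markers ran from 4707 to 4934 TPM at 0 h, 5272 to 5421 TPM at 1 h and 4961 to 5102 TPM at 4 h. Over all 36 libraries their sum ran from 2697 to 6482 TPM. Of the 8 fibroblast markers, 1 was higher and none lower at 1 h (median log2 change -0.07). At 2 h, 3 were higher and none lower (0.38), and at 4 h also 3 and none (0.37). At 24 h, 1 was higher and 4 were lower (-0.53). The shares of all genes are those given above. The part of these shifts in the result was not tested.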

How the data were processed

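RNA was sequenced on 3 lanes as 75-base paired-end reads, without molecular identifiers, from 36 libraries. The authors aligned reads to GRCm38 with HISAT2 2.1.0 and deposited raw counts per gene from featureCounts of Subread 1.6.3, whose stated settings did not use strand. The authors also deposited TPM from Salmon 0.9.1, which estimates transcript abundance per length. Groups came from the labels, which give 50 nM siRNA, where the methods of the study state a lower dose. No columns of per-sample values were left out (0 unused). The members and gene lists were chosen with earlier results of these data known.

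Counts were tested with edgeR 4.0.16 in R 4.3.3 (TMM scaling, filterByExpr, quasi-likelihood F-test, Benjamini-Hochberg adjustment over all genes tested), in separate fits for the IFT88siRNA time course, the NT time course and each time between siRNAs, and over all 36 libraries (16710 genes) for the joint tests. A call needed an adjusted p under 0.05 and a fold change over 1.5. CPM values use TMM-scaled library sizes, and depth was 19337022 to 38304127 counted pairs. All 28 members passed the filters and were reported by role; values in every library were printed for the 2 or 3 members of each role with the largest called change, and Lss, Idi1, Abcg1 and others were added for contrast after their values were seen. Of each other list, the 2 most raised and 2 most lowered called genes at 4 h were named. Alternatives were DESeq2 1.42.0, its size factors, upper-quartile scaling, no filter, no fold threshold, a replicate block, each replicate left out, all libraries in 1 model, and limma 3.58.1 on log2(TPM + 1) or log2(TPM + 0.1) with a minimum of 1 TPM in 3 libraries or none; leaving out IFT88siRNA 8 h replicate 3 was added after the data were seen. Scripts were tested on simulated counts with 200 genes changed. Promoter windows were matched by symbol to RefSeq.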

Additional observations from a re-analysis of the deposited data

Results flagged for a closer look

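Idi1 and Fdps were singled out because a test of the difference itself (the interaction of siRNA and time over 36 libraries, edgeR) gave an adjusted p under 0.05, although neither passed the fold threshold of 1.5. For Idi1, which was at 34.6, 36.1 and 33.5 CPM in IFT88siRNA and 30.9, 26.4 and 29.3 CPM in NT at 8 h, the log2 change against 0 h was higher in IFT88siRNA by 0.40 at 1 h, 0.26 at 2 h, 0.06 at 4 h, 0.47 at 8 h and 0.22 at 24 h (edgeR adjusted p = 0.0471). For Fdps the differences were 0.31, 0.23, 0.07, 0.40 and 0.38 (edgeR adjusted p = 0.0441). All 10 differences have the same sign, and they share the 0 h libraries, in which both genes were lower in IFT88siRNA. Neither call was kept when a replicate was left out: the edgeR adjusted p was 0.159 to 0.176 for Idi1 and 0.101 to 0.519 for Fdps. The largest difference was then 0.66, 0.27 and 0.52 for Idi1 without replicates 1, 2 and 3, and 0.41, 0.53 and 0.28 for Fdps. Without IFT88siRNA 8 h replicate 3 they were 0.0403 and 0.056.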

How the results depend on the processing

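Of 892 values of the 64 member fold changes past both thresholds in tested comparisons, recomputed under the alternatives, 836 kept their direction and their side of the thresholds, 53 kept their direction only and 3 reversed; the 3 were Tm7sf2 at 2 h, at -0.03, -0.04 and -0.03 on log2(TPM + 1), log2(TPM + 0.1) and unfiltered log2(TPM + 1), and the cause was not tested. With no fold threshold the members called against 0 h in IFT88siRNA were 25, 25, 18 and 10 at 2, 4, 8 and 24 h. Between 4 and 24 h they were 26. In NT they were 21, 25, 23 and 17 at 2, 4, 8 and 24 h. Between siRNAs they were 2, 2, 1 and 1 at 0, 1, 4 and 8 h, with 10 jointly and 2 for a different response. These counts are larger since that alternative drops 1 of the criteria. For the time courses, the share of all genes called without a fold threshold was not computed. Nothing particular to the pathway is therefore read from those counts. On TPM, with limma at log2(TPM + 1), log2(TPM + 0.1) and without a filter, members called at 2 h were 6, 7 and 6 in IFT88siRNA (13 by edgeR on counts) and 3, 3 and 3 in NT (7), and at 24 h 1 in each group under each setting (2); the cause was not tested. Leaving out each replicate gave 19 to 21 members at 1 h, 10 to 14 at 2 h, 13 to 15 at 4 h, 3 at 8 h and 12 to 13 between 4 and 24 h in IFT88siRNA, and 1 to 2 at 24 h in both groups, the lower count without replicate 2. Under those settings Pmvk at 1 h (0.57), Abcg1 at 1 h, Idi1, Sqle, Lss and Stard4 at 2 h (0.51 to 0.58) and Nr1h3 at 24 h were lost. The enzyme median ran from 0.89 to 1.08 at 1 h and from -0.95 to -0.71 at 4 h over the settings. At 2 h it was 0.57 in the main fit and ran from 0.27 on log2(TPM + 1) to 0.66 without replicate 3. Upper-quartile scaling moved the median of all genes by -0.11 and -0.12 at 2 and 4 h in IFT88siRNA, and log2(TPM + 1) by -0.13, -0.19 and -0.19 at 1, 2 and 4 h. Whether replicate numbers mark a shared source was not settled. Same-numbered libraries deviated together with r from -0.555 to 0.747 (median 0.0539, 79 of 198 pairs over 0.1). Different-numbered libraries did so with r from -0.675 to 0.595 (median -0.0219, 115 of 396 pairs over 0.1). With a replicate block the members called in IFT88siRNA were 21, 13, 13, 3 and 2 at the 5 times, 0 between siRNAs and 0 for a different response, and in NT at 8 h 6 in place of 5; the block left Idi1 and Fdps with an edgeR adjusted p of 0.0325 and 0.0151 for a different response. Counts limit Abcg1 and Nr1h3 most.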
